A study of Mus musculus with 16 samples.

Results

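The macrophage lineage transcription factors examined here are 10 genes whose products bind DNA and set or maintain the identity of myeloid cells: Spi1, Runx1, Cebpa, Cebpb, Irf5, Irf8, Mef2c, Maf, Klf4 and Pparg. All 10 were found among the 12394 genes that the arrays measured, on 22 of the 20393 probe sets annotated to a single gene symbol. Each gene was read from its brightest probe set, judged by the mean of the 16 arrays, and any other probe sets served as a check. Spi1, Cebpa, Maf and Pparg had no other probe set and so no such check.

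The arrays measured RNA of tumour-associated macrophages, sorted as CD11b+ Gr.1- cells from mouse gliomas, with 1 array per mouse. There were 8 mice given BLZ945, an inhibitor of the kinase of the CSF-1 receptor, and 8 given Vehicle, a captisol solution, each by gavage once a day for 7 days. All 16 mice were Nestin-Tv-a;Ink4a/Arf-/- on a mixed background. Their tumours arose after intracranial injection of cells producing RCAS-PDGF-B-HA, an avian virus that enters only cells carrying the Tv-a receptor, here cells with an active Nestin promoter, and that delivers the growth factor PDGF-B. The tumours are therefore driven by 1 growth factor in mice that lack the Ink4a/Arf tumour suppressors everywhere, the macrophages included. The dose is labelled as 200 mg with no body weight. The BLZ945 mice were 5 females and 3 males, and 4 of them were 11.29 and 4 were 13.14 weeks old. The Vehicle mice were 4 females and 4 males, and 4 of them were 11.29, 2 were 11.43 and 2 were 12.29 weeks old. The initial tumour volume in the labels, given without a unit, was 41.3 to 132.3 in BLZ945 mice and 11.9 to 27.3 in the 6 Vehicle mice that have one, so volume and agent cannot be told apart. Per the labels' protocol, mice entered treatment with tumours of 4.5 to 40 mm3 by MRI, yet every BLZ945 value of this label is above 40 and every Vehicle value below it, so what the label measures is not settled. The label of the cells matched their markers: the mean of 12 macrophage genes was 11.83 to 12.16 in BLZ945 and 11.83 to 12.33 in Vehicle mice, with Csf1r among the brightest, although Itgam, the gene for the sorted protein CD11b, was lower in BLZ945, as given below among the targets.

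As background, PU.1, the ETS-family protein made from Spi1, opens the chromatin of macrophage genes, the CSF-1 receptor gene among them, and acts together with RUNX1, C/EBP alpha and C/EBP beta. IRF8 and IRF5 belong to the interferon regulatory factors. IRF8 binds DNA mostly with PU.1 and is needed for monocyte, dendritic cell and microglia programmes, and its own gene is induced by interferon gamma. MEF2C is part of the microglia programme, c-MAF and KLF4 belong to the mature macrophage and monocyte programmes, and PPAR gamma is a lipid-sensing nuclear receptor.

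Promoter sequences are shown for Irf8, the gene whose level differed between the agents, for Irf5 of its family and for Runx1. Runx1 was taken for its correlation with Irf8 within each agent, which had opposite signs and passed adjustment in neither. RefSeq promoter windows of 300 bases on GRCm38.p6 were held for 8 of the 10 genes, in 14 windows. Short motifs were looked for on both strands, and both the motifs and the windows to print were picked after the sequences and the expression results had been seen. The motifs were ISRE (GAAA, any 2 bases, GAAA), a PU.1 core (GAGGAA), an ETS element (CGGAAGT), RUNX (TGTGGT), C/EBP (TTGCNNAA), MEF2 (CTA, any 4 bases, TAG) and MAF (TGCTGAC). Matches are in capitals below, and each sequence runs 5′ to 3′ on the strand of its gene.

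The windows are Irf8 window 1 at chr8:120736108-120736407 on the plus strand, Irf5 at chr6:29526375-29526674 on the plus strand and Runx1 window 1 at chr16:92826025-92826324 on the minus strand.
Irf8 window 1: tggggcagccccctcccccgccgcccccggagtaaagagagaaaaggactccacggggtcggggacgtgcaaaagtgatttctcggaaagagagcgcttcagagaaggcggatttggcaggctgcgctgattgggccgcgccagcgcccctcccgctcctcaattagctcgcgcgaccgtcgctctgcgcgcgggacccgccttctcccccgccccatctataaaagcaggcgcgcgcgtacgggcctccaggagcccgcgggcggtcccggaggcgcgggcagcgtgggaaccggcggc
Irf5: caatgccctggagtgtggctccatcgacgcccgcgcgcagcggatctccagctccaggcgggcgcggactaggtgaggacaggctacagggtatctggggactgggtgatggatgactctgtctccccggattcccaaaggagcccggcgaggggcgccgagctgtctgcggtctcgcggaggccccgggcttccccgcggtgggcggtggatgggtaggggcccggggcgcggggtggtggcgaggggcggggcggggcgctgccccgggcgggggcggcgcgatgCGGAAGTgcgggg
Runx1 window 1: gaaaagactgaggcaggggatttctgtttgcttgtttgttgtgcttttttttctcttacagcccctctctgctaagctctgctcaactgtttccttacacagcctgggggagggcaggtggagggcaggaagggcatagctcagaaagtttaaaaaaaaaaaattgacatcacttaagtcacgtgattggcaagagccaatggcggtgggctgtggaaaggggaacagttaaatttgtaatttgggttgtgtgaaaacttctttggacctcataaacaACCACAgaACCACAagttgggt

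Neither Irf8 window held any of these motifs, and the first is printed without capitals. Other elements, among them those through which interferon gamma acts, were not looked for, so their absence is not shown. The Irf5 window held the ETS element 38 bases after its start, as did 6.42% of all 32851 promoter windows at any position. The Runx1 window held RUNX letters on its opposite strand, written ACCACA, at 2 places beginning 29 and 37 bases after its start, against 16.8% of all windows with any. The ETS element was also in Mef2c. The PU.1 core was in Runx1 window 2, Mef2c and Pparg (28.3% of all windows held it) and the C/EBP letters were in Pparg (10.8%). ISRE, MEF2 and MAF letters were in 0 of the 14 windows, against 3.44%, 3.69% and 4.67% of all windows. Overlaps between motifs were allowed. These are matches of letters, and no binding was measured.

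The question the main comparison addresses is whether the lineage factors differed when the CSF-1 receptor had been inhibited for 7 days. Irf8 rose, and none of the other 9 factors passed the test in either direction. The test was limma's moderated test over all 12394 genes, and calls were made at an adjusted p (Benjamini-Hochberg) under 0.05. Of all genes, 984 (7.94%) were called, 322 (2.60%) higher and 662 (5.34%) lower in BLZ945. With the quantile normalization repeated the split was 488 higher and 654 lower. Among the factors 1 of 10 was called, a share near that of all genes, so the count is no result about the factors as a group. The log2 difference, BLZ945 minus Vehicle, had a median of 0.22 over the 10 factors and 0.07 over all genes, and 6 factors had a positive and 4 a negative difference. With the normalization repeated, the small negative differences of Irf5 and Mef2c became 0.04 and 0.02. Because each array is a bulk sample, a change in the mix of cells and a change of RNA per cell cannot be told apart.

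**Figure D1:**
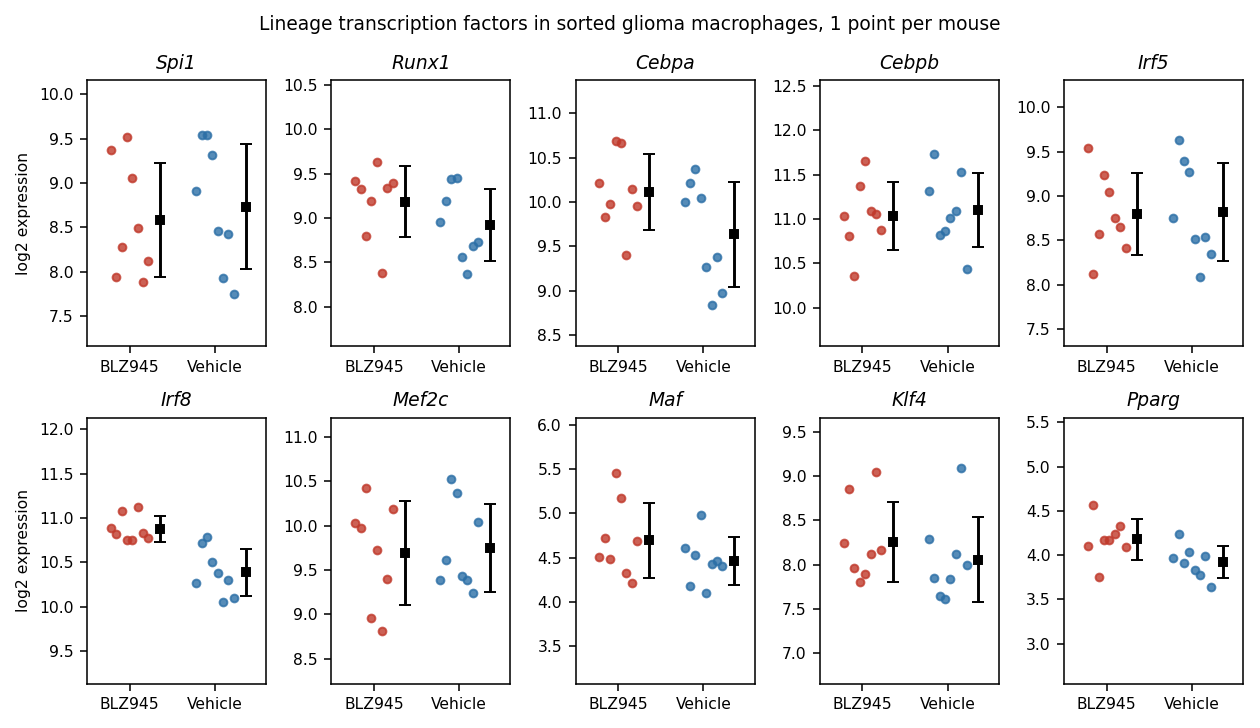
Log2 expression of the 10 factors in each mouse, BLZ945 left of Vehicle, with the mean ± SD of 8 mice beside the points; every panel spans the same number of log2 units. Irf8 is the factor whose BLZ945 mice, 10.75 to 11.12, lie mostly above the Vehicle mice, 10.05 to 10.78.

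Irf8 was the factor with the largest difference. Its log2 level had a lowest, median and highest value of 10.75, 10.82 and 11.12 in BLZ945 mice, against 10.05, 10.34 and 10.78 in Vehicle mice. The BLZ945 mice were close together and high, and the Vehicle mice were spread below them, with Vehicle 3 alone reaching into the BLZ945 range. All 8 BLZ945 mice were above the Vehicle median and 5 were above every Vehicle mouse. The mean was 10.88 ± 0.15 in BLZ945 and 10.39 ± 0.27 in Vehicle (SD, n = 8 each), a difference of 0.49 with a 95% interval of 0.24 to 0.74 (limma adjusted p = 0.0144). That is a 1.40-fold higher level, with an interval of 1.18 to 1.67.

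A second probe set of Irf8 gave the same direction with a larger difference. Its lowest, median and highest values were 10.08, 10.29 and 10.66 in BLZ945 mice, against 9.11, 9.61 and 10.09 in Vehicle mice. On this probe set 7 of 8 BLZ945 mice were above every Vehicle mouse, and the lowest BLZ945 mouse was just under the highest Vehicle mouse. The difference was 0.70 (interval 0.41 to 1.00, limma adjusted p = 0.00494 in a fit over all 22690 probe sets, of which 6.84% were called). Over the 16 arrays the pair of probe sets correlated at r = 0.878.

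Within the only age that held both agents, 11.29 weeks, the Irf8 groups did not overlap on the probe set used. How many of all genes separate in this way was not counted, so the separation is not shown to be particular to Irf8. The 4 BLZ945 mice had 10.88, 10.81, 11.08 and 11.12, and the 4 Vehicle mice had 10.50, 10.38, 10.05 and 10.31. The difference there was 0.67 (limma adjusted p = 0.0801), which did not pass the test in these 8 mice. It was 0.55 in females and 0.45 in males, neither past the test within 1 sex (adjusted p = 0.129 and 0.430).

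Beside the higher Irf8, 4 or more genes of each of 4 lists were lower in BLZ945, and Irf8 was refitted with the mean of each of these lists as a covariate. Of the cell cycle genes 11 of 11 fell, Mcm6 by 1.64 and Pcna by 0.58 among them, with a list mean of 5.14 to 7.14 in BLZ945 and 7.45 to 8.90 in Vehicle mice. Of the glioma and oligodendrocyte precursor genes 5 of 9 fell, Olig1 by 1.95, while Cspg4 had a difference of 0.44 (limma adjusted p = 0.424), with a list mean of 4.69 to 6.37 in BLZ945 and 6.05 to 7.84 in Vehicle mice. With the first as covariate the Irf8 difference was 0.35 (adjusted p = 1.00, when 0 of all genes were called), and with the second 0.30 (adjusted p = 0.529). The means of the cell cycle list did not overlap between the agents, so the first of these fits cannot separate that list from the agent. Of the microglia genes 4 of 9 fell (list mean 9.81 to 11.06 in BLZ945, 10.79 to 11.79 in Vehicle), and of the genes of monocyte-derived macrophages 4 of 10 (6.38 to 7.88 in BLZ945, 7.64 to 8.88 in Vehicle). Tgfbi of the monocyte-derived list fell by 1.78, and Fn1 had -0.89, Fcrls -0.54 and Cx3cr1 -0.42 without passing. The Irf8 difference with the microglia and then the monocyte-derived list as covariate was 0.61 (adjusted p = 0.115) and 0.51 (adjusted p = 0.344). Of the macrophage markers 1 of 12 fell, Itgam, and of the astrocyte markers 1 of 6, Gja1, by 2.00 (limma adjusted p = 0.0292), with an astrocyte list mean of 4.96 to 5.71 in BLZ945 and 5.61 to 6.29 in Vehicle mice. Slc1a3, the brightest astrocyte marker, had a difference of -0.04 (limma adjusted p = 0.935), and the median difference of that list was -0.09. Irf8 was not refitted with the macrophage or the astrocyte list. Dendritic cells and B cells also use IRF8, and limma called 0 of 6 dendritic cell and 0 of 4 B cell markers, with 3 and 1 at an unadjusted p under 0.05. The dendritic cell list mean was 4.83 to 6.78 in BLZ945 and 5.10 to 5.95 in Vehicle mice, and the B cell mean was 4.48 to 4.87 in BLZ945 and 4.33 to 5.08 in Vehicle mice. The 2 brightest genes of each list had differences of -0.20 (Flt3) and -0.73 (Itgae) for dendritic cells and 0.00 (Cd79b) and 0.57 (Ms4a1) for B cells. Over the whole dendritic cell list the median difference was 0.05, with a mean level of 5.70 in BLZ945 and 5.64 in Vehicle. Flt3 and Itgae therefore do not stand for that list. The median difference of the B cell list was 0.09. Of the T and NK cell markers limma called 0 of 9, with 6 at an unadjusted p under 0.05, a list mean of 4.45 to 6.13 in BLZ945 and 4.09 to 5.15 in Vehicle mice, and differences of 1.83 for Gzma and -0.44 for Klrd1. The part of these 3 cell types and of astrocytes in the Irf8 difference was not tested.

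**Figure D2:**
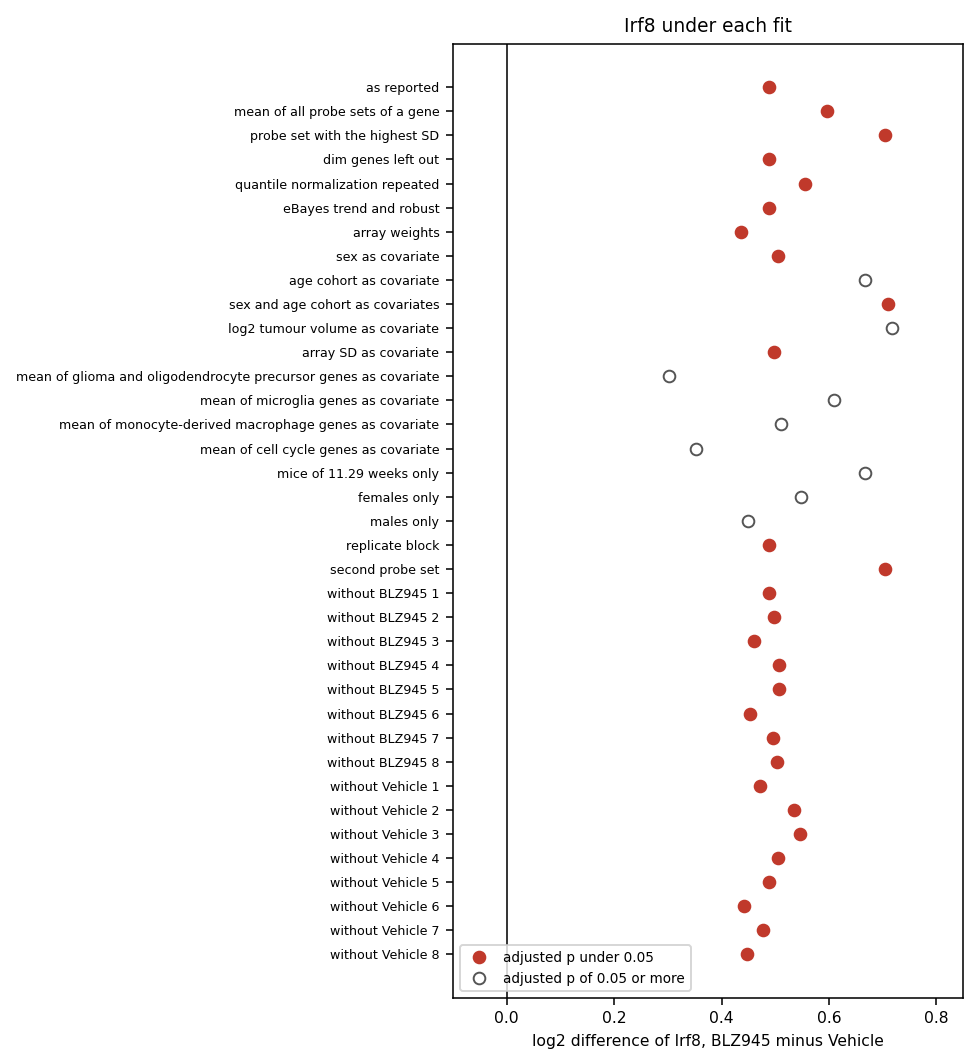
Log2 difference of Irf8, BLZ945 minus Vehicle, under every fit that was run, filled where the limma adjusted p was under 0.05. All differences lie between 0.30 and 0.72, and the open points are the fits with age alone, volume or a marker list as covariate and the 3 subsets of mice.

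IRF5, the other interferon regulatory factor here, is known for driving inflammatory cytokine genes in macrophages. Irf5 had values of 8.12, 8.70 and 9.55 (lowest, median, highest) in BLZ945 mice, against 8.09, 8.64 and 9.63 in Vehicle mice. The ranges covered each other almost fully, and the difference was -0.02 (interval -0.51 to 0.46, limma adjusted p = 0.958). A dimmer second probe set had a difference of 0.15 and correlated with the one used at only r = 0.171. The log2 value of Irf8 minus that of Irf5 in the same mouse, a quantity to be read only between agents since probe sets differ in brightness, averaged 2.08 ± 0.50 in BLZ945 and 1.57 ± 0.32 in Vehicle (SD, n = 8 each). This change of 0.51 had an exact two-sided permutation p of 0.0309 over 12870 labellings and an adjusted p of 0.131 over the 5 pairs of relatives compared, so it did not pass.

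Spi1, the gene for PU.1, had values of 7.89, 8.38 and 9.52 in BLZ945 mice, against 7.75, 8.68 and 9.54 in Vehicle mice. In both groups the mice spread over more than 1.5 log2 units, from end to end of the same range. The difference was -0.15 (interval -0.78 to 0.48, limma adjusted p = 0.780), an interval that leaves room for a fold between 0.581 and 1.40. Csf1r, a target of PU.1 and the gene for the receptor that BLZ945 inhibits, had 13.66 ± 0.12 in BLZ945 and 13.61 ± 0.14 in Vehicle (SD, n = 8 each), a difference of 0.06 (limma adjusted p = 0.730).

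RUNX1 partners with PU.1 during the formation of blood and myeloid cells. Runx1 had values of 8.38, 9.33 and 9.63 in BLZ945 mice, against 8.36, 8.84 and 9.45 in Vehicle mice. Most BLZ945 mice lay in the upper part of the common range, 6 of 8 above the Vehicle median, but 7 of 8 Vehicle mice were above the lowest BLZ945 mouse. The difference was 0.26 (interval -0.13 to 0.66, limma adjusted p = 0.413). All 5 Runx1 probe sets had a positive difference, 0.16 to 0.29, and limma called 0 of 5, with none at an unadjusted p under 0.05.

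C/EBP alpha directs the early myeloid programme, and C/EBP beta takes part in the inflammatory and repair programmes of mature macrophages. Cebpa had values of 9.40, 10.06 and 10.69 in BLZ945 mice, against 8.84, 9.69 and 10.37 in Vehicle mice. The BLZ945 mice tended to the top, with 7 of 8 above the Vehicle median. The Vehicle mice fell into 4 with values of 9.38 or less, replicates 5 to 8, and 4 with values of 10.00 or more, replicates 1 to 4. The difference of 0.47 was nearly that of Irf8, but the spread was wider (interval -0.02 to 0.97, limma adjusted p = 0.239). Cebpb had 10.36, 11.05 and 11.65 in BLZ945 mice, against 10.43, 11.05 and 11.73 in Vehicle mice. Its groups overlapped throughout, with a difference of -0.07 (interval -0.46 to 0.33, limma adjusted p = 0.843) and 0.08 on its second probe set. Read the same way, Cebpa minus Cebpb was -0.92 ± 0.37 in BLZ945 and -1.46 ± 0.61 in Vehicle (SD, n = 8 each), a change of 0.54 (exact two-sided permutation p = 0.0524, adjusted p = 0.131).

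The factors of mature and tissue macrophages did not pass the test either. Mef2c had values of 8.82, 9.85 and 10.43 in BLZ945 mice, against 9.24, 9.52 and 10.52 in Vehicle mice. The BLZ945 mice were the wider group, with 2 below every Vehicle mouse, and the difference was -0.06 (interval -0.57 to 0.46, limma adjusted p = 0.902). Its 4 other probe sets had positive differences of 0.08 to 0.37, so the sign for Mef2c depended on the probe set, and none of the 5 was called. Klf4 had 7.80, 8.14 and 9.04 in BLZ945 mice, against 7.61, 7.92 and 9.09 in Vehicle mice. The highest Klf4 values, in BLZ945 2 and 7 and in Vehicle 7, came from both groups, and the difference was 0.20 (interval -0.24 to 0.65, limma adjusted p = 0.578). The second probe set of Klf4 had a difference of 0.04 and correlated with the one used at r = 0.623.

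Maf and Pparg were dim on these arrays, at the 28.0th and 20.4th percentile of mean level over all genes, where the normalization used compresses differences. Maf had values of 4.22, 4.60 and 5.45 in BLZ945 mice, against 4.10, 4.45 and 4.98 in Vehicle mice. BLZ945 4 and 5 were the highest and the rest overlapped, and the difference was 0.24 (interval -0.12 to 0.59, limma adjusted p = 0.415). Pparg had 3.75, 4.17 and 4.56 in BLZ945 mice, against 3.64, 3.94 and 4.24 in Vehicle mice. It was above the Vehicle median in 7 of 8 BLZ945 mice, and its difference of 0.25 (interval 0.01 to 0.50) had an unadjusted p of 0.0404 but a limma adjusted p of 0.195, so it was not called. Irf8 and Pparg were the 2 factors with an unadjusted p under 0.05.

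**Figure D3:**
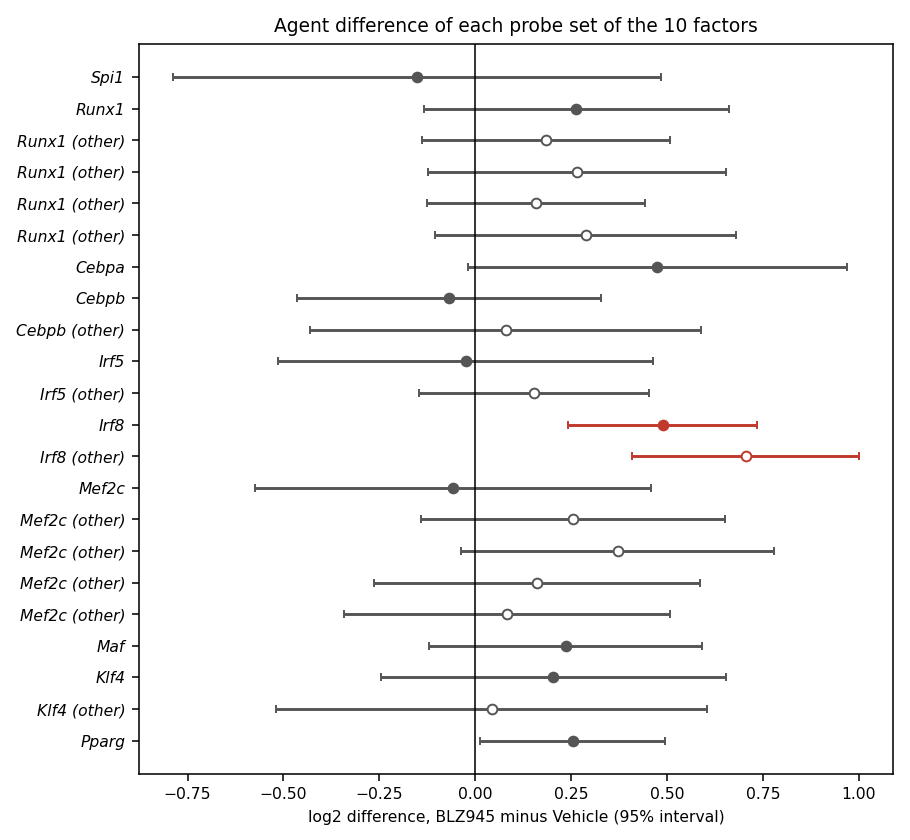
Log2 difference, BLZ945 minus Vehicle, with its 95% interval for each of the 22 probe sets of the factors; filled points are the probe sets used, open ones the other probe sets of the gene, red those with a limma adjusted p under 0.05. Both Irf8 probe sets are red, at 0.49 and 0.70, and the 20 other probe sets are not.

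The difference between the agents was next compared between the sexes, with males and females in 1 fit. For this interaction of sex and agent 0 of 10 factors and 0 of 12394 genes (0%) were called by limma, with 0 factors and 414 genes at an unadjusted p under 0.05. The largest value was that of Spi1, whose difference was -0.83 in 3 BLZ945 against 4 Vehicle males and 0.34 in 5 BLZ945 against 4 Vehicle females. The males' minus the females' difference was -1.17 with an interval of -2.38 to 0.05 (limma adjusted p = 0.983). For Irf8 it was -0.10, with an interval of -0.62 to 0.42.

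Age was compared within BLZ945, 4 mice of 13.14 weeks against 4 of 11.29 weeks. Of all genes limma called 5 (0.0403%), with 2312 at an unadjusted p under 0.05. Among the factors 0 of 10 were called and none had an unadjusted p under 0.05. Cebpa came closest, with a mean of 10.36 in the older and 9.86 in the younger mice, a difference of 0.50 (interval -0.00 to 1.01, limma adjusted p = 0.269).

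The value labelled initial tumour volume, whose meaning is unsettled as given above, was set against the factors within the 8 BLZ945 mice. The 2 factors with the steepest slopes were Spi1 and Irf5, both negative. The slope of Spi1 was -0.98 log2 units per doubling of volume (interval -1.47 to -0.49, unadjusted p = 0.00112) and that of Irf5 was -0.71 (interval -1.11 to -0.30, unadjusted p = 0.00273). Neither passed limma's adjustment over all genes (adjusted p = 0.653 for each), and 0 of 12394 genes (0%) did, with 846 at an unadjusted p under 0.05. When limma's array weights were used, both passed among 172 genes. Irf8 had a slope of -0.06 with an interval of -0.39 to 0.28.

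The factors were next compared with each other from mouse to mouse, using each mouse's deviation from its agent's mean so that the agent difference itself did not enter. Of 45 pairs, 4 were correlated at an adjusted p under 0.05 (100000 permutations within agents, adjusted over 45 pairs). Spi1 and Irf5 moved together most closely, with r = 0.935 and rho = 0.898 over 16 mice (permutation adjusted p = 0.00045). Spi1 with Cebpa had r = 0.831 and rho = 0.805, Runx1 with Cebpa r = 0.809 and rho = 0.774, and Cebpa with Irf5 r = 0.792 and rho = 0.812 (permutation adjusted p = 0.00675, 0.00675 and 0.0115). Without the 2 mice farthest from the median of the first gene, these r values were 0.932, 0.775, 0.704 and 0.718, and Spi1 with Irf5 alone passed. Correlations of this size were common on these arrays: 522 genes (4.21%) had an absolute r over 0.8 with Spi1, and Irf5 ranked 20 among all genes. In the Vehicle group, replicates 1 to 4 were all above replicates 5 to 8 for Spi1, Runx1, Cebpa and Irf5. For Spi1 the former had 8.90 to 9.54 and the latter 7.75 to 8.45. This step between sets of mice enters all 4 correlations, and its source was not tested.

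An array property moved with these 4 genes. The SD of all log2 values of an array was 2.22 to 2.43 in BLZ945 and 2.30 to 2.49 in Vehicle mice. Its deviations correlated with those of Spi1, Runx1, Cebpa and Irf5 at r = -0.601 to -0.710 over 16 mice (permutation adjusted p = 0.0314 to 0.0476 over 10 genes), and by rank at rho = -0.490 to -0.659, where none passed. Once the array SD had been regressed out, Spi1 with Irf5 had r = 0.896 and Irf5 with Irf8 had r = 0.834, and these 2 of 45 pairs passed (permutation adjusted p = 0.00045 and 0.00517).

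**Figure D4:**
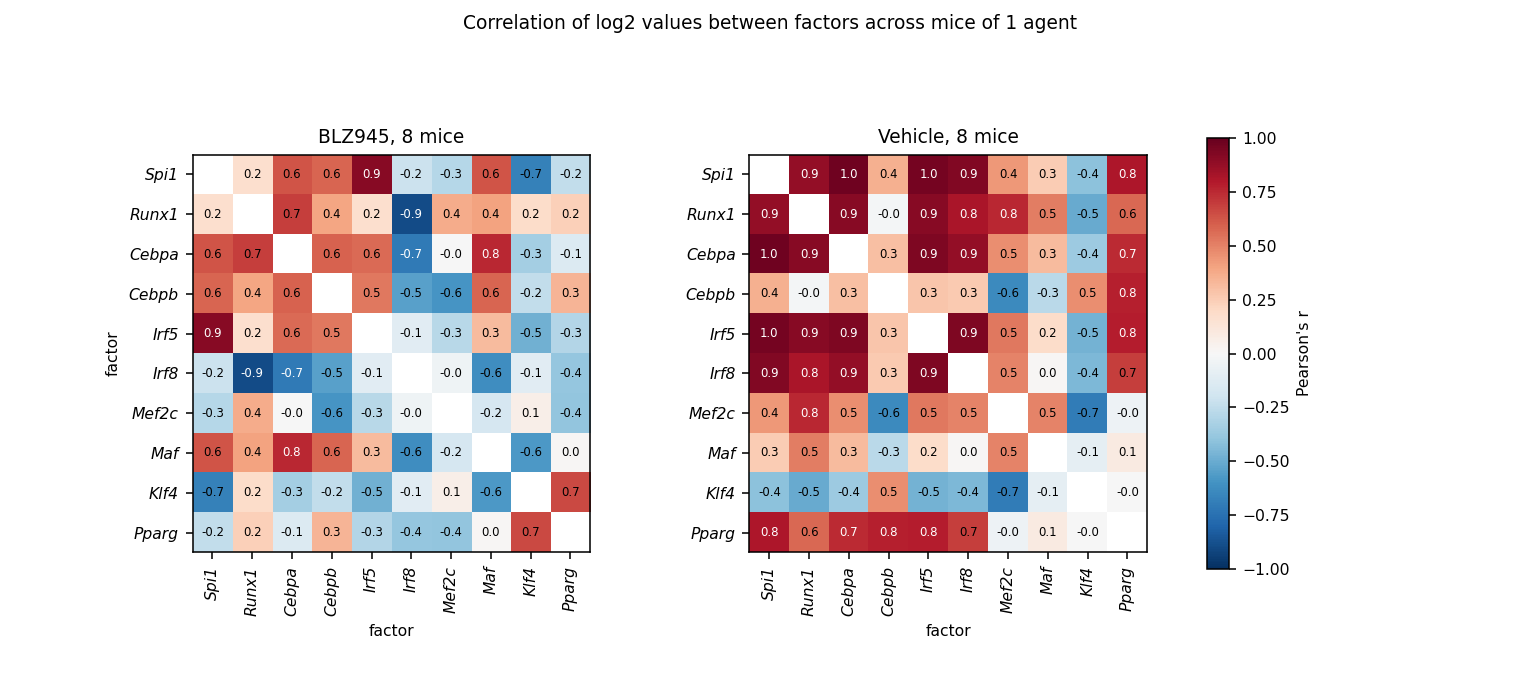
Pearson's r between the log2 values of each pair of factors across the 8 BLZ945 mice (left) and the 8 Vehicle mice (right), on 1 colour scale. Irf8 has r of -0.89 with Runx1 and -0.71 with Cebpa in BLZ945 mice and 0.81 and 0.88 in Vehicle mice; no such difference between the agents passed its test after adjustment.

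The correlations of Irf8 with the other factors were then taken within each agent. Within BLZ945 Irf8 had an r of -0.111 with Irf5, -0.214 with Spi1, -0.710 with Cebpa and -0.891 with Runx1 (rho = -0.476 for the last). None of the 45 pairs passed there (exact permutation adjusted p = 0.269 for Irf8 with Runx1), and 4 had an unadjusted p under 0.05. Within Vehicle Irf8 had an r of 0.937 with Irf5, 0.925 with Spi1, 0.877 with Cebpa and 0.813 with Runx1 (rho = 0.881, 0.898, 0.905 and 0.714). The first 3 passed among 9 of 45 pairs (exact permutation adjusted p = 0.00977, 0.0179 and 0.0273). Vehicle 2, 3 and 4, the mice of that group with the most Irf8, also had its highest Spi1, Irf5 and Cebpa. The step between Vehicle 1 to 4 and Vehicle 5 to 8, given above for Spi1, Runx1, Cebpa and Irf5, enters these correlations too. Irf8 itself did not split fully there, since Vehicle 5 (10.38) was above Vehicle 1 (10.26).

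The negative r of Irf8 with Runx1 in BLZ945 rested on 2 mice. BLZ945 3 and 6 had the highest Irf8, 11.08 and 11.12, and the lowest Runx1 of that group, 8.80 and 8.38, and without the 2 mice farthest from the median r was -0.034. The other 6 BLZ945 mice had Irf8 of 10.75 to 10.88. With the mean of all probe sets of each gene r was -0.628 in BLZ945 and 0.725 in Vehicle, and with the probe sets of highest SD it was -0.080 in BLZ945 and 0.799 in Vehicle.

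The difference between the agents' r values was tested for all 45 pairs, an analysis added after the data had been seen. The mice's deviations from their agent's mean were relabelled in all possible ways. Such deviations need not spread alike in both agents, and Irf8 spread less in BLZ945, so these p-values are approximate. Of the 45 pairs none passed after adjustment, and 8 had an unadjusted p under 0.05. The largest difference was that of Irf8 with Runx1, -1.70 (permutation p = 0.00171, adjusted p = 0.0769). Irf8 with Irf5, Cebpa and Spi1 differed by -1.05, -1.59 and -1.14 (permutation adjusted p = 0.128 for each). Within BLZ945, array SD correlated with Irf8 at r = 0.730 and with Cebpa at r = -0.935. With array SD regressed out the r of Irf8 in BLZ945 was 0.875 with Irf5, 0.699 with Spi1, -0.114 with Cebpa and -0.790 with Runx1. With the probe sets of highest SD it was -0.565 with Irf5, -0.824 with Spi1 and -0.368 with Cebpa, so these values depended on the probe set.

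**Figure D5:**
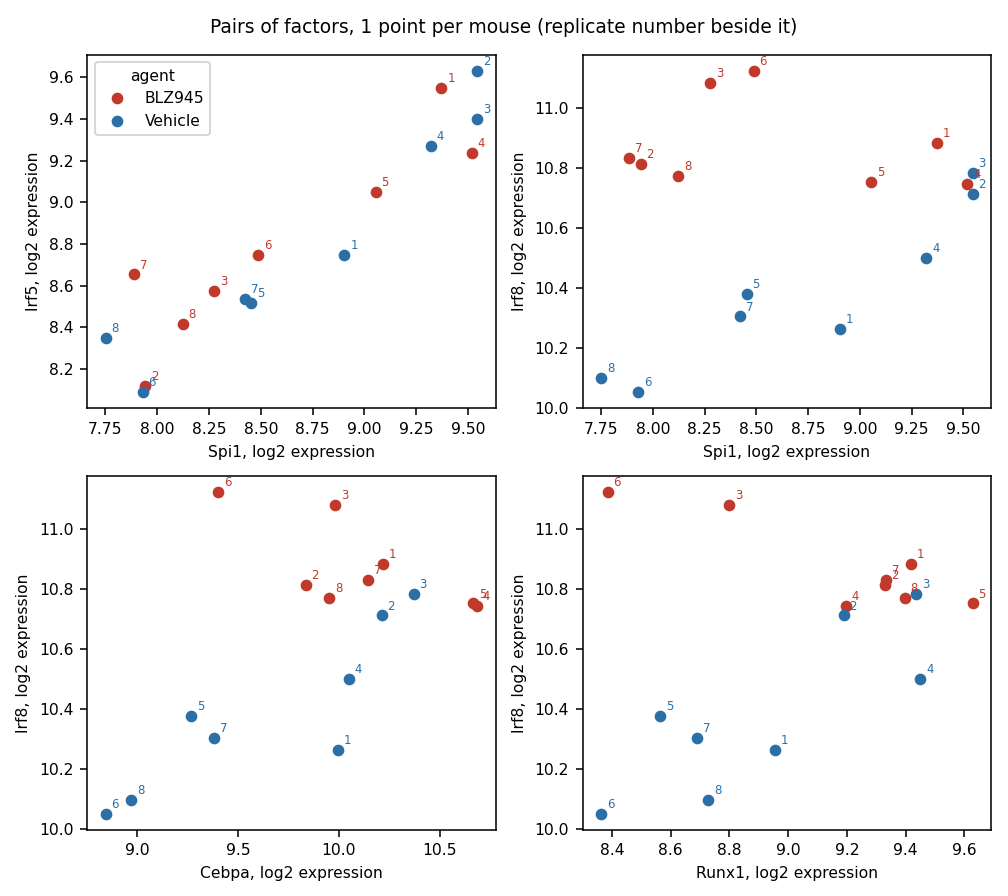
Log2 values of pairs of factors, 1 point per mouse with its replicate number, BLZ945 in red and Vehicle in blue. Spi1 and Irf5 rise together in both groups, while for Irf8 the Vehicle mice rise along each x axis from 10.05 to 10.78 and most BLZ945 mice lie above them, between 10.75 and 11.12.

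Among all 12394 genes, those whose deviations were most like those of Irf8 over the 16 arrays were Hvcn1, which encodes a proton channel of immune cells, with r = 0.875, Sh2d3c with r = 0.854 and Tmbim6 with r = 0.839. Hvcn1 was also higher in BLZ945, by 0.64 (limma adjusted p = 0.0155), and it correlated with Irf8 at r = 0.899 within BLZ945 and r = 0.874 within Vehicle. Sh2d3c and Tmbim6 did so at r = 0.468 and 0.532 within BLZ945 and at r = 0.966 and 0.941 within Vehicle. Only 12 genes had an absolute r over 0.8 with Irf8, against 522 for Spi1.

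The relatives of the factors were examined as 10 lists of other transcription factors, 91 genes in all. Of these, 5 (5.49%) rose and 0 fell in BLZ945, against 2.60% higher and 5.34% lower among all genes, or 7.94% called in either direction, so the count is no result about the relatives as a group. They had a median difference of 0.19 against 0.07 for all genes. In the IRF family 1 of 6 rose, Irf3, which drives type I interferon genes, with values of 8.58, 8.75 and 9.08 in BLZ945 mice, against 7.94, 8.41 and 8.63 in Vehicle mice (difference 0.43, limma adjusted p = 0.0323). Irf3 was not called with the mean of all its probe sets or with the probe set of highest SD, and was called in 9 of 16 fits that left out 1 mouse. In the C/EBP family 1 of 3 rose, Ddit3, which encodes the stress-response factor CHOP, with 8.23, 8.46 and 8.96 in BLZ945 mice, against 7.17, 7.63 and 8.05 in Vehicle mice. Its groups did not overlap, and the difference was 0.90 (limma adjusted p = 0.00103).

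Mitf, a factor of lysosomal and pigment genes that partners with PU.1 in osteoclasts, was 1 of 22 tissue macrophage and microglia factors that rose. It had 8.91, 9.88 and 10.29 in BLZ945 mice, against 8.17, 8.58 and 9.25 in Vehicle mice, a difference of 1.07 (limma adjusted p = 0.00265), and 6 of 8 BLZ945 mice were above every Vehicle mouse. Rxrg, a partner receptor of PPAR gamma, was 1 of 10 in its list, with a difference of 0.80 (limma adjusted p = 0.00839). Lmo2, a cofactor of early blood factors, was 1 of 11 blood progenitor factors, with a difference of 0.41 (limma adjusted p = 0.0308), and was called in 7 of 16 fits that left out 1 mouse. In the ETS (16 genes), RUNX (2), MEF2 (3), MAF and BACH (6) and KLF (12) lists limma called 0 genes, with 0, 0, 1, 1 and 6 at an unadjusted p under 0.05. Of these, Mef2d came closest with a difference of 0.50 (limma adjusted p = 0.0528).

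The known targets of the factors were taken as 5 lists with 58 genes, and 4 of the lists are described. Of the 58, 5 (8.62%) rose and 7 (12.1%) fell, against 2.60% higher and 5.34% lower among all genes. The lists were chosen with earlier results of these data known, so the counts are no result about the targets as a group. Mrc1 was picked by the study from these very samples, and the direction of a list holding it is not independent evidence. Of 19 PU.1 targets, Csf3r, the receptor of G-CSF, rose by 0.80 and Itgam fell by 1.17 (limma adjusted p = 0.0346 and 0.00807). Csf3r was called in 8 of 16 fits that left out 1 mouse and Itgam in 16. Itgam encodes CD11b, the protein the cells were sorted on, and had 7.93, 8.99 and 9.92 in BLZ945 mice, against 9.41, 9.96 and 10.83 in Vehicle mice. Of 10 IRF5 and IRF8 targets 0 rose and 1 fell, P2ry12, a purine receptor of microglia, by 1.35 (limma adjusted p = 0.00699). P2ry12 is also in the microglia list above.

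Of 12 C/EBP targets, Il1b, which encodes interleukin-1 beta, and Csf3r rose, while Mrc1, the mannose receptor CD206, fell. Il1b had 10.53, 11.04 and 11.97 in BLZ945 mice, against 9.19, 10.02 and 10.82 in Vehicle mice, a difference of 1.04 (limma adjusted p = 0.0123). Mrc1 had 3.85, 6.69 and 7.46 in BLZ945 mice, against 8.82, 9.28 and 10.55 in Vehicle mice, with no overlap (difference -3.08, limma adjusted p = 0.000171).

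PPAR gamma and LXR targets moved in both directions. Of 15 genes, Lpl, lipoprotein lipase, rose by 1.42, and the cholesterol exporters Abcg1 and Abca1 by 0.81 and 0.56, while Mrc1 and Cpt1a, an enzyme of fatty acid oxidation, fell, with differences of -3.08 and -0.44. Abca1 and Cpt1a were not called with the mean of all probe sets or with the probe set of highest SD, and Cpt1a was also not called with the normalization repeated and was called in 10 of 16 fits that left out 1 mouse. Lpl had 12.61, 13.09 and 13.35 in BLZ945 mice, against 10.88, 11.76 and 12.12 in Vehicle mice, without overlap (limma adjusted p = 0.000124). The medians of the 5 target lists were -0.01 to 0.12, against 0.07 for all genes.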

How the data were processed

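RNA of sorted glioma macrophages from 16 mice was measured on Affymetrix 3' arrays. The values the authors deposited are log2 expression per probe set and array, for which the submitters' processing notes list RMA and GCOS 1.4. Neither the RMA implementation nor a genome build is named in those sources. Scanner files were not used here, and no probe set was therefore called absent; precision is limited by the number of arrays. Of 22690 probe sets, 20393 had 1 gene symbol, 691 several and 1606 none. BLZ945 was compared with Vehicle in limma 3.58.1 (R 4.3.3, lmFit and eBayes, no covariate, no filter on dim genes). The replicates are separate mice. Permutation tests and correlations used Python 3.11.15 with numpy 2.4.6 and scipy 1.17.1. The calculations were tested on simulated data. The factors, lists and tests were chosen with earlier results of these data known. Named genes are the 10 factors, up to 3 called genes with the smallest p per list or else the 1 with the smallest p, the 3 genes most like each called factor, the 2 brightest genes of a marker list beside a result, and Csf1r and Itgam. Abca1 and Cpt1a fall outside that rule and were named after their values were seen. Where groups are said not to overlap, the share of all genes with such groups was not counted. Of 7 planned pairs of relatives 5 were compared, and the others were not analysed here. Of the 5 target lists, 1 enters the counts but is not reported here. Alternative settings changed the probe sets, the filter on dim genes, normalization, eBayes settings, array weights, covariates, subsets of mice and leaving out each mouse.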

Additional observations from a re-analysis of the deposited data

Results flagged for a closer look

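Klf4 in Vehicle 7 stood apart from the other Vehicle mice on the probe set used. Its log2 value was 9.09, the next highest Vehicle value was 8.28, and this gap was 0.547 of the range of the Vehicle group, above the 95% critical value of Dixon's test for 8 samples. In the BLZ945 group the highest Klf4 value was 9.04. The Vehicle 7 value was the single such value among 20 groups examined (10 factors, 2 agents), and chance gives about 1 in 20. On the second probe set of Klf4 it did not stand apart. There Vehicle 7 had 8.63, Vehicle 2 followed with 8.48, and the lowest Vehicle mouse had 7.25.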

How the results depend on the processing

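Irf8 stayed positive under 36 of 36 alternatives (0.30 to 0.72) and past the threshold in 27, among them all 16 that left out 1 mouse. It missed the threshold with age (0.67, limma adjusted p = 0.0524), tumour volume (0.72, 0.106, 14 mice), glioma (0.30, 0.529), microglia (0.61, 0.115), monocyte-derived (0.51, 0.344) or cell cycle genes (0.35, 1.00) as covariate, and in mice of 11.29 weeks (0.67, 0.0801), females (0.55, 0.129) and males (0.45, 0.430). In these 9 settings 0 factors were called. The counts of called genes there, against 984, and of called relatives and targets, against 17, were 215 and 6 with age, 15 and 0 with volume, 177 and 7 with glioma, 206 and 8 with microglia, 51 and 3 with monocyte-derived, 0 and 0 with cell cycle genes, 89 and 4 at 11.29 weeks, 393 and 11 in females, and 2 and 1 in males. With sex and age together they were 324 and 11, and with array SD 1644 (866 higher, 778 lower) and 27, with Irf8 called in both. Leaving out 1 mouse gave 710 to 1188 genes, 13 to 25 relatives and targets and 1 factor. The cause of these shifts was not tested, and the subsets also hold fewer mice. The fit with cell cycle genes cannot separate that list from the agent, since the list means did not overlap between the groups. The volumes did not overlap either. With age as covariate the difference comes only from the mice of 11.29 weeks, since no other age held both agents.

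The other 9 factors were called in no alternative. Their sign held in all for Pparg, and turned for Spi1 in 3 of 35, Cebpb in 7 of 36, Irf5 in 16 of 36, Mef2c in 16 of 39, Klf4 in 3 of 36, Maf in 2 of 34, and Cebpa and Runx1 in 1 each. Maf and Pparg had no value when dim genes were left out. With array weights 2 factors passed against volume. Of the pairs of relatives, 1 (Irf8 against Irf5) passed with the mean of all probe sets and without BLZ945 replicate 1, and leaving out 1 mouse gave 0 to 1. Correlated pairs, 4 as reported, were 2 with the mean of all probe sets, 2 with array SD removed, 0 within BLZ945, 9 within Vehicle and 1 when the 2 arrays farthest from the median were left out.

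Replicate numbers shared by the groups did not pair the mice: same-numbered mice correlated at r = -0.48 to 0.39, with 5 of 8 over 0.1 and 2 of 8 most like their own number. With the replicate number as a block 873 genes, 1 factor (Irf8, 0.49, adjusted p = 0.0346) and 20 relatives and targets were called.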
